A study of Mus musculus with 4 samples.

Results

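Candidates for free RNA were followed through 8 genes whose transcripts are made in bulk by a few specialised cell types, in single-cell data of brain immune cells that are mostly not known as their main source. They were chosen by their symbols, with measured values in view, and all 8 were found among the 32285 genes of the deposited matrices. The values that chose them were their UMIs per 10,000 in each matrix and in each class of cells, so the levels below are a description and carry no test. The members were Ttr and Enpp2, made by the choroid plexus, the immunoglobulin genes Igkc and Ighm with their partner Jchain, the myelin gene Mbp, and the haemoglobin genes Hbb-bs and Hba-a1.

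When tissue is dissociated, damaged cells spill RNA into the suspension, and some of this free RNA enters droplets together with intact cells. It is counted as if it came from the cell in the droplet, and abundant transcripts of lysed or sensitive cells are the ones most often seen in this way. Choroid plexus epithelium lines the brain ventricles and secretes transthyretin, plasma cells devote much of their RNA to antibody chains, oligodendrocytes wrap axons in myelin, and red blood cells are filled with haemoglobin messenger RNA. Cells that make a transcript themselves give it too, so a count in a droplet does not tell its origin.

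The data were from C57B6/J mice with a cortical brain injury, and CD45 positive primary cells of the hippocampus (HPC) and of the thalamus were profiled by 10x Genomics single-cell RNA sequencing of the 3' ends of transcripts. The labels name no uninjured group, and they give no sex, age or time after injury. Per the methods of the study the tissue was of injured hemispheres and cells of 4 mice went into the pool of a region, and the labels list 4 multiplexing oligos (DNA tags) for each region. Each of the 4 deposited matrices of a region was taken to be the tagged set of a single mouse, an assumption that neither source states. Each region was 1 library, so an effect of the library cannot be told apart from one of the region. The 4 sets of a region shared 1 droplet run.

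Of 29190 deposited cells, 24939 passed the filters of the study, 13402 in the HPC and 11537 in the thalamus, with 119958441 UMIs (molecules counted once) in all and 9789875 to 26636526 UMIs in a set. CD45 itself (Ptprc) was detected in 84.6% of the kept cells. No barcode occurred in more than 1 set of a region, and 65 barcodes occurred in both regions. Cells were sorted into classes by marker genes that do not include the members: 18688 cells were microglia-like, 823 neutrophil-like, 3042 T- or NK-like (T/NK-like), 181 macrophage- or monocyte-like and 119 dendritic-like, and these are called the 5 main classes. Among the others, 56 cells were B-like, 18 plasma-cell-like, 5 choroid-plexus-like and 4 oligodendrocyte-like, while 1295 cells passed no gate and 707 passed more than 1. The classes are ranges of a marker count and not sharp types, with 963 cells at the microglia limit or 1 marker below it. Levels are given as UMIs per 10,000 UMIs and are described by set as mean ± SD over 4 sets, and intervals in the text are 95% and cover counting error only. Empty droplets, which hold free RNA alone, were not analysed here. As candidates for free RNA the members were not alike, and their order depended on the scale. Counted per cell, the highest main class was 1.74 times the lowest for Ttr in the thalamus. For Igkc it was 1.59 times in the HPC, over 4 classes, and 2.72 times in the thalamus, over 5. The thalamus value for Igkc rested on 5 and 8 UMIs. For Ighm and Mbp the per-cell ratio was 3.01 to 10.7. Per 10,000 UMIs the ratio was 2.62 for Ttr in the thalamus, and 5.95 and 2.51 for Igkc in HPC and thalamus. In the same order it was 1.93 and 2.74 for Ighm and 5.84 and 4.75 for Mbp. Enpp2, Jchain and the haemoglobin genes were too low for a firm ratio of classes.

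In the 5 main classes, the thalamus sets lay above every HPC set for 2 members, Ttr and Enpp2, and below every HPC set for 3 members, Igkc, Jchain and Hbb-bs. The other 3 members, Ighm, Mbp and Hba-a1, overlapped between the regions. Over the 20172 genes with more than 3 UMIs in these classes, the sets did not overlap for 4.99% with the thalamus higher and for 6.20% with the thalamus lower. These counts use the contrast by which the members were chosen, so nothing is read from them.

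**Figure D1:**
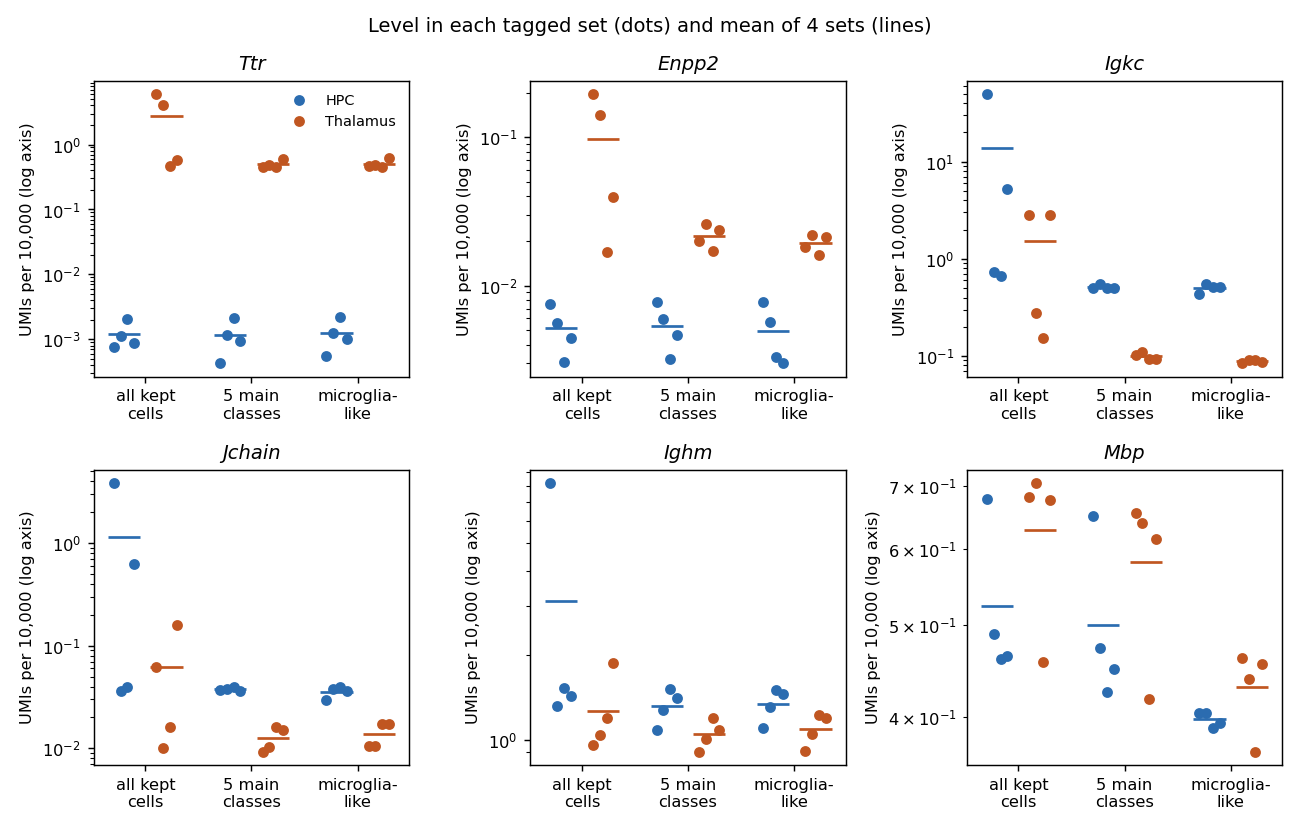
Level of the 6 members other than the haemoglobin genes (UMIs per 10,000, log axis) in the 4 HPC and 4 thalamus sets, for all kept cells, the 5 main classes and microglia-like cells. Points are sets and lines are means of 4 sets. The Ttr sets of the thalamus spread from 0.459 to 5.90 in all kept cells and from 0.454 to 0.596 in the 5 main classes.

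Ttr (ENSMUSG00000061808, GRCm38 chromosome 18, 20665280 to 20674321, plus strand, protein coding) encodes transthyretin, the carrier of thyroid hormone and of retinol-binding protein in blood and cerebrospinal fluid. In all kept cells of the thalamus its level was 5.90 in set 1, 4.04 in set 2, 0.459 in set 3 and 0.578 in set 4. Sets 1 and 2 stood far above sets 3 and 4, and the mean was 2.74 ± 2.68 (SD, n = 4). The HPC held 7 Ttr UMIs in all 4 sets together, a mean of 0.0012 ± 0.00058 (SD, n = 4).

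The spread between the thalamus sets lay in very few cells. Of 15789 Ttr UMIs in kept thalamus cells, 12966 were in the 5 choroid-plexus-like cells, which came from sets 1 and 2. Over the 5 main classes alone the thalamus level was 0.454, 0.491, 0.456 and 0.596 in sets 1 to 4, a mean of 0.499 ± 0.0665 (SD, n = 4) from 2464 UMIs. The 4 sets then lay within 1 narrow range. The HPC held 6 Ttr UMIs in the same classes, a mean of 0.0012 ± 0.00072 (SD, n = 4), and the ratio of the regional means was 427.

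Choroid-plexus-like cells were more numerous before the filter on mitochondrial counts. In the deposited matrices 53 cells passed that gate, with 18, 20, 4 and 11 in thalamus sets 1 to 4 and 0 in the HPC. The limit of 2% mitochondrial counts removed 48 of them, whose mitochondrial share was 2.03% to 15.5%, while the 5 kept cells had 0.203% to 1.80%. Ttr made up 7.60% to 54.4% of the UMIs of a choroid-plexus-like cell, with a median of 34.0%. The removed ones held 104578 Ttr UMIs, 91.9% of the 113820 Ttr UMIs in the thalamus cells that the filters removed.

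The Ttr level in the main classes did not follow the Ttr content of a set's own choroid-plexus-like cells. These cells, kept and removed, held 46425, 48334, 3755 and 19030 Ttr UMIs in thalamus sets 1 to 4. The main classes of set 3, with the fewest, had 0.456 UMIs per 10,000, and those of set 1, with over 10 times as many, had 0.454. Set 4 had the highest level of the main classes, 0.596. The 4 sets shared 1 droplet run, so RNA of 1 set could enter droplets of another, and a comparison by set cannot tell a source. Where the Ttr UMIs of the main classes came from was not tested.

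**Figure D2:**
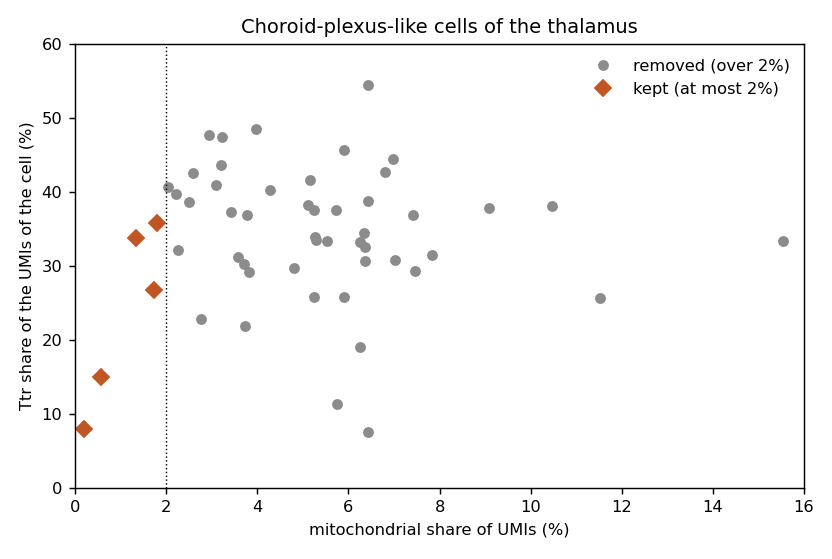
Share of Ttr in the UMIs of each of the 53 deposited choroid-plexus-like cells of the thalamus (percent) against the mitochondrial share of the cell (percent), with the limit of 2% as a dotted line. The 5 kept cells lie left of the line and the 48 removed cells right of it, and the Ttr share spans 7.60% to 54.4%.

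Within the thalamus, Ttr was present in every main class. The level was 0.511 (0.489 to 0.534) in microglia-like cells, 0.464 (0.413 to 0.520) in T/NK-like cells and 0.859 (0.638 to 1.13) in neutrophil-like cells. It was 0.328 (0.210 to 0.488) in macrophage- or monocyte-like and 0.383 (0.234 to 0.591) in dendritic-like cells. The intervals of microglia-like and T/NK-like cells overlapped, and the neutrophil-like level was 2.62 times the macrophage- or monocyte-like level.

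Neutrophil-like cells were the shallowest class, with a median of 1849 UMIs in the thalamus against 4722.5 in microglia-like and 6823.5 in macrophage- or monocyte-like cells. Counted per cell, Ttr was 0.258 UMIs in microglia-like, 0.166 in T/NK-like, 0.164 in neutrophil-like, 0.226 in macrophage- or monocyte-like and 0.286 in dendritic-like cells, so the highest class was 1.74 times the lowest. Over the 7043 genes with more than 3 UMIs in each of these 5 classes, the median of that ratio per cell was 5.85, and 1.14% of the genes had a ratio as low as that of Ttr. Per 10,000 UMIs the median was 3.03, and 40.6% of the genes were at or below the Ttr ratio. The Ttr ratio was thus near the low end of all genes per cell and not per UMI, and as the class levels were used in choosing the members, these shares are a description.

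A Ttr UMI was found in 19.8% of microglia-like cells of the thalamus and in 0.0564% of those of the HPC, at median depths of 4722.5 and 4750.5 UMIs. Neither microglia nor lymphocytes are known as a source of Ttr, and T/NK-like cells of the thalamus had a UMI in 14.2%, at a median of 3409.5 UMIs. Cells with 1 UMI held 67.9% of the Ttr UMIs of the main classes. A further 8 cells had more than 7 UMIs, up to 111 in 1 cell, and held 10.5%.

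Enpp2 (ENSMUSG00000022425, chromosome 15, 54838901 to 54952892, minus strand, protein coding, overlapped on the other strand by the long non-coding RNA Gm26684) encodes autotaxin, a secreted enzyme that makes lysophosphatidic acid. Choroid plexus epithelium and oligodendrocytes both express it. In all kept cells of the thalamus it was 0.195, 0.141, 0.0170 and 0.0398 UMIs per 10,000 in sets 1 to 4, again highest in sets 1 and 2. The main classes of the sets had 0.0198, 0.0261, 0.0172 and 0.0239, a mean of 0.0218 ± 0.0040 (SD, n = 4) from 107 UMIs. The HPC mean was 0.0054 ± 0.0019 (SD, n = 4) from 36 UMIs, so the thalamus was 4.06 times the HPC and the sets did not overlap.

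The ratio of Ttr to Enpp2 in a class was set beside that of the choroid-plexus-like cells. In the 5 kept choroid-plexus-like cells there were 31.0 Ttr UMIs for each Enpp2 UMI, and in all 53 deposited ones 28.0. Microglia-like cells of the thalamus had 26.2, with Ttr making up 96.3% (Wilson interval 95.4% to 97.0%) of the pair against 96.9% (96.6% to 97.2%) in the choroid-plexus-like cells. Those intervals overlapped. T/NK-like cells of the thalamus had a lower ratio of 12.4, at 92.5% (89.1% to 94.9%), outside both. In oligodendrocyte-like cells the pair was 0 Ttr to 30 Enpp2 UMIs, and in HPC microglia-like cells 6 to 29.

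Folr1, a folate receptor of choroid plexus epithelium, was compared in the same way, a pair added after the data were seen. The kept choroid-plexus-like cells had 249 Ttr UMIs for each Folr1 UMI and microglia-like cells of the thalamus 57.6, from 36 Folr1 UMIs. The HPC, where Ttr was nearly undetected, held 15 Folr1 UMIs in microglia-like cells. As shares of the pair, Ttr was 98.3% (97.6% to 98.8%) in microglia-like cells of the thalamus, below the 99.6% (99.5% to 99.7%) of choroid-plexus-like cells. T/NK-like cells of the thalamus had 297 Ttr UMIs and 1 Folr1 UMI, a share of 99.7% (98.1% to 99.9%) whose interval held the choroid-plexus-like share. Neutrophil-like, macrophage- or monocyte-like and dendritic-like cells there had 50, 24 and 20 Ttr UMIs and 0 Folr1 UMIs.

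Igkc (ENSMUSG00000076609, chromosome 6, 70726435 to 70726966, plus strand, an immunoglobulin constant gene) encodes the constant part of the kappa light chain. The long non-coding RNA Gm30211 overlaps it on the same strand, so reads of the pair may have been split or left uncounted. In all kept cells it was 49.0, 0.738, 0.673 and 5.19 UMIs per 10,000 in HPC sets 1 to 4, and 2.81, 0.279, 0.155 and 2.82 in the thalamus sets. HPC set 1 stood far above every other set, and the regions overlapped. Plasma-cell-like cells held 82.9% of the HPC Igkc UMIs, and 16 of the 17 HPC plasma-cell-like cells were in set 1.

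Within the 5 main classes these differences between sets were gone. Igkc was 0.497, 0.551, 0.503 and 0.501 in the HPC sets, a mean of 0.513 ± 0.0255 (SD, n = 4), and 0.102, 0.111, 0.0926 and 0.0928 in the thalamus sets, a mean of 0.0996 ± 0.0087 (SD, n = 4). Every HPC set lay above every thalamus set, and the regional means differed by 5.15 times. The main classes held 2.24% of the HPC Igkc UMIs. HPC set 1, which had nearly all plasma-cell-like cells, was not above the other HPC sets there. As the sets shared 1 droplet run, a comparison by set cannot tell the source of these UMIs, which was not tested.

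Igkc was also found in every main class of the HPC. Per 10,000 UMIs it was 0.497 in microglia-like, 0.520 in T/NK-like, 0.255 in macrophage- or monocyte-like and 1.52 in neutrophil-like cells, and the highest class was 5.95 times the lowest. Counted per cell the same classes had 0.248, 0.220, 0.200 and 0.319 UMIs, a ratio of 1.59. Of 7927 genes with more than 3 UMIs in each of the 4 HPC classes of at least 50 cells, 1.40% had a per-cell ratio this low, and the median was 5.89. Per 10,000 UMIs, 75.9% of the genes were at or below the Igkc ratio.

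The neutrophil-like level came mainly from 1 set and in large part from 1 cell. HPC set 1 held 458 of the 518 neutrophil-like cells and had 1.68 Igkc UMIs per 10,000 in them, against 0.486 in set 2 and 0.750 in set 4, which rest on 4 and 5 UMIs. A single cell of set 1 held 73 of the 165 Igkc UMIs of the class, and without it the neutrophil-like level was 0.848. Leaving out the cell with the most UMIs in each class, the highest class was 3.78 times the lowest per 10,000 UMIs and 1.34 times per cell. Single cells of the main classes reached 130 Igkc UMIs, and 12 cells above 7 UMIs held 11.3% of the main-class Igkc UMIs of the HPC. Without set 1, 3 HPC classes had 50 cells or more, with 0.565 in neutrophil-like (9 UMIs), 0.530 in microglia-like and 0.476 in T/NK-like cells, so the highest was 1.19 times the lowest per 10,000 UMIs, and 1.71 times per cell. In the thalamus the highest class, T/NK-like cells at 0.172, was 2.51 times the lowest, which rested on 5 UMIs. Per cell the ratio was 2.72, dendritic-like over neutrophil-like cells, from 5 and 8 UMIs.

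Jchain (ENSMUSG00000067149, chromosome 5, 88519809 to 88527891, minus strand, protein coding) encodes the joining chain of secreted IgM and IgA, and plasma cells are its main source. Over the main classes it was 0.0372, 0.0378, 0.0395 and 0.0362 UMIs per 10,000 in the HPC sets, a mean of 0.0377 ± 0.0014 (SD, n = 4). The thalamus sets had 0.0092, 0.0103, 0.0161 and 0.0150, a mean of 0.0127 ± 0.0034 (SD, n = 4). All HPC sets were higher, by 2.98 times in the mean. In all kept cells HPC set 1 had 3.82 and plasma-cell-like cells held 89.5% of the HPC Jchain UMIs.

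In the HPC the ratio of Igkc to Jchain was near that of the plasma-cell-like cells in each class deep enough to give it. It was 11.7 in plasma-cell-like cells, 14.3 in microglia-like, 10.6 in T/NK-like and 12.7 in neutrophil-like cells, while B-like cells had 33.3. In shares of the pair, the T/NK-like interval (87.6% to 94.0%) and the neutrophil-like interval (87.9% to 95.7%) held the plasma-cell-like share of 92.1%, and the microglia-like interval (92.5% to 94.3%) lay just above it. Without the neutrophil-like cell of 73 Igkc UMIs that class had a ratio of 8.36 and a share of 89.3% (81.9% to 93.9%). In the thalamus the ratio was 6.38 in microglia-like cells and 50.9 in the single kept plasma-cell-like cell. A further 3 cells passed the plasma cell gate together with a microglia or T/NK gate and were kept apart. The one in the thalamus, in set 4, had 4249 Igkc, 1259 Ighm and 234 Jchain UMIs, a ratio of Igkc to Jchain of 18.2, and held more Igkc than the plasma-cell-like cell (4071). Those in the HPC, both in set 1, had 8221 and 4147 Igkc UMIs and ratios of 33.8 and 8.94.

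Igha, the constant gene of IgA, was added as a further pair after the data were seen. In HPC plasma-cell-like cells there were 12.8 Igkc UMIs for each Igha UMI, and 6 of the 17 cells had more than 50 Igha UMIs. The ratio was 7.27 in microglia-like, 8.09 in T/NK-like and 18.3 in neutrophil-like cells of the HPC. As a share of the pair, Igkc was 92.8% (92.6% to 92.9%) in the plasma-cell-like cells. The microglia-like share of 87.9% (86.7% to 89.0%) and the T/NK-like share of 89.0% (85.0% to 92.0%) lay below it. The neutrophil-like interval (90.5% to 97.3%) held it. B-like cells had 6921 Igkc UMIs and 2 Igha UMIs. In the thalamus, microglia-like cells had a ratio of 59.5, from 6 Igha UMIs, and the plasma-cell-like cell there carried 1017 UMIs of Ighg2b, the IgG2b constant gene, with 1 Igha UMI.

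Ighm (ENSMUSG00000076617, chromosome 12, 113418558 to 113422730, minus strand, an immunoglobulin constant gene) encodes the heavy chain of IgM. Within the main classes it was 1.08, 1.28, 1.51 and 1.41 UMIs per 10,000 in the HPC sets, a mean of 1.32 ± 0.187 (SD, n = 4), and 0.904, 1.00, 1.19 and 1.08 in the thalamus sets, a mean of 1.05 ± 0.124 (SD, n = 4). Unlike those of Igkc, the sets of the regions overlapped, but between sets of the same number the thalamus was lower in 4 of 4, at 0.768 to 0.839 times the HPC level, and in microglia-like cells at 0.806 to 0.824 times. The main classes held 71.9% of the thalamus and 27.9% of the HPC Ighm UMIs.

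The ratio of Igkc to Ighm set the main classes apart from the antibody-making cells. It was 7.75 in plasma-cell-like and 4.07 in B-like cells of the HPC, against 0.383 in microglia-like and 0.542 in T/NK-like cells. In microglia-like cells of the thalamus it was 0.0808. Neutrophil-like cells of the HPC, at 1.90, lay between, with 1.30 when the cell of 73 Igkc UMIs was left out.

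Ighm also differed between classes on the per-cell scale. Microglia-like cells had 0.647 UMIs per cell in the HPC and 0.549 in the thalamus, while neutrophil-like cells had 0.168 and 0.0852. The highest class was 7.22 times the lowest per cell in the HPC and 10.7 times in the thalamus, and 1.93 and 2.74 times per 10,000 UMIs. Leaving out a set also changed which classes had 50 cells. Without HPC set 1 the per-cell ratio there was 3.70 over 3 classes. The highest class, macrophage- or monocyte-like cells, then had 23 cells and was left out. It had 1.04 UMIs per cell, against 0.183 in neutrophil-like cells, from 11 UMIs. Without thalamus set 2 the ratio was 6.60 over 4 classes, with the highest class, dendritic-like cells, left out. Of all genes, 58.5% in the HPC and 75.0% in the thalamus had a per-cell ratio at or below that of Ighm. Whether these reads came from transcripts of mature IgM was not tested.

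**Figure D3:**
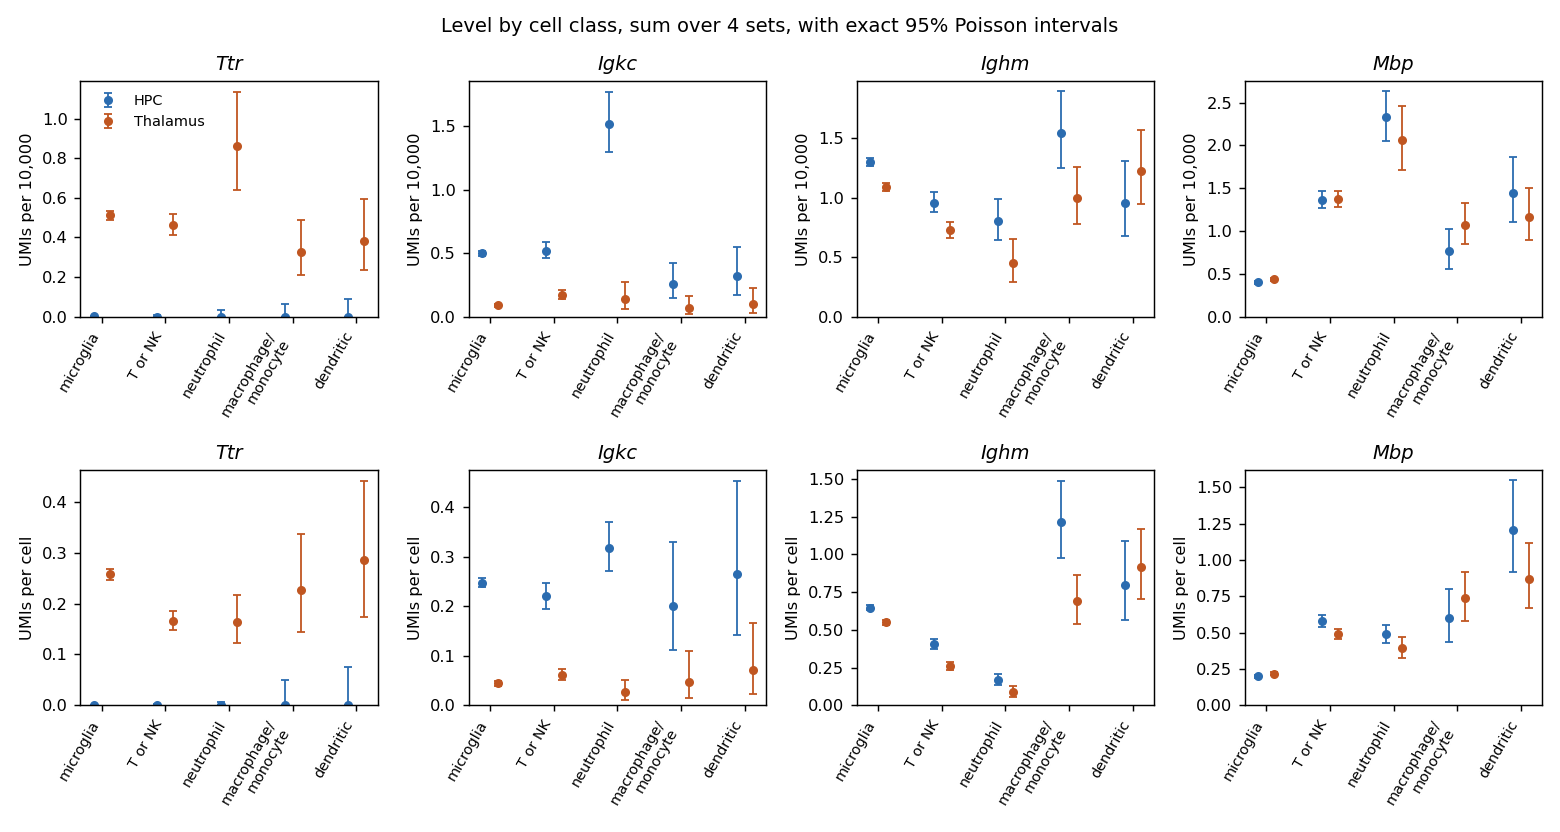
Levels of Ttr, Igkc, Ighm and Mbp by class of cells in each region, as UMIs per 10,000 (top) and UMIs per cell (bottom), summed over 4 sets, with exact Poisson 95% intervals (counting error only). The HPC dendritic-like class had 49 cells and entered no class ratio. Thalamus Ttr spans 0.328 to 0.859 per 10,000 UMIs and 0.164 to 0.286 per cell over the 5 main classes.

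Mbp (ENSMUSG00000041607, chromosome 18, 82475146 to 82585637, plus strand, protein coding, with the pseudogene Rpl21-ps8 on the other strand) encodes myelin basic protein, and the same locus gives golli transcripts that immune cells are known to express. In the 5 main classes it was 0.651, 0.472, 0.425 and 0.449 UMIs per 10,000 in the HPC sets and 0.655, 0.639, 0.418 and 0.615 in the thalamus sets. HPC set 1 was high and thalamus set 3 low, and the regions overlapped. Between sets of the same number the thalamus was higher in 3 of 4, at 0.982 to 1.37 times the HPC level. In microglia-like cells alone the HPC sets had 0.404, 0.404, 0.390 and 0.395 and the thalamus sets 0.461, 0.439, 0.367 and 0.454. The HPC sets were close together there.

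Mbp differed between classes in both regions in the same order at its ends. In the HPC it was 0.400 in microglia-like, 0.765 in macrophage- or monocyte-like, 1.37 in T/NK-like and 2.34 in neutrophil-like cells. In the thalamus it was 0.434 in microglia-like, 1.07 in macrophage- or monocyte-like, 1.17 in dendritic-like, 1.37 in T/NK-like and 2.06 in neutrophil-like cells. Neutrophil-like cells were highest and microglia-like cells lowest, by 5.84 times in the HPC (3.79 times without HPC set 1) and 4.75 times in the thalamus. Per cell the highest class, which was then another, exceeded the microglia-like cells by 3.01 and 3.98 times. It was not tested which transcripts of the locus the reads came from.

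**Figure D4:**
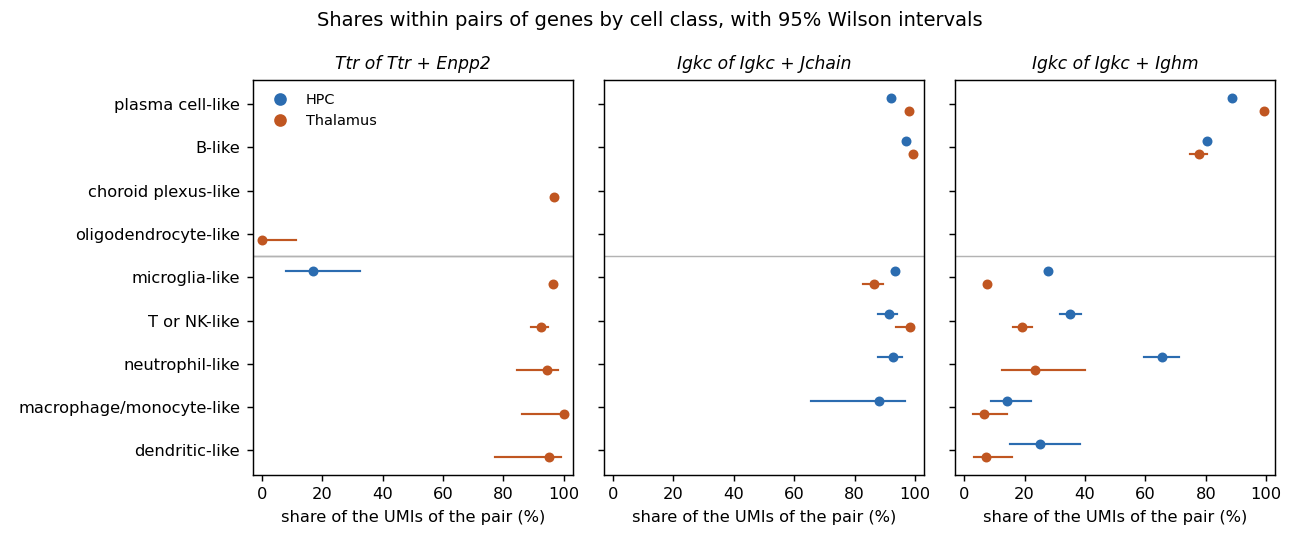
Share of the first gene in the UMIs of a pair (percent, Wilson 95% intervals, counting error only) by class and region, for pairs with at least 15 UMIs, with a grey line between candidate source classes and the 5 main classes. Ttr is 96.9% of its pair with Enpp2 in choroid-plexus-like and 96.3% in thalamus microglia-like cells, while Igkc is 88.6% of its pair with Ighm in plasma-cell-like and 27.7% in HPC microglia-like cells.

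The haemoglobin genes were almost absent. Hbb-bs (ENSMUSG00000052305, chromosome 7, 103826534 to 103828096, minus strand, protein coding), an adult beta globin, had 28 UMIs in the HPC and 1 in the thalamus over all kept cells. By set it had 5, 8, 4 and 11 UMIs in the HPC and 0, 0, 0 and 1 in the thalamus. Hba-a1 (ENSMUSG00000069919, chromosome 11, 32283511 to 32284465, plus strand, protein coding), an adult alpha globin, had 8 UMIs in the HPC and 4 in the thalamus. No kept cell had more than 1 erythroid marker, so no erythroid-like cell was among them.

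Each of these globin genes has a copy that is near-identical in its coding bases, and the sequences show how little separates them there. Hba-a1 and Hba-a2 differ at 1 of 429 coding bases (99.8% identical), as do Hbb-bs and Hbb-bt at 1 of 444. The last 120 coding bases, taken from GENCODE M21 transcripts (GRCm38) on the strand of each gene, hold that position, which is in capitals. They lie at chr11:32284272-32284391 and chr11:32297089-32297208 on the plus strand and at chr7:103826665-103826784 and chr7:103812656-103812775 on the minus strand.
Hba-a1: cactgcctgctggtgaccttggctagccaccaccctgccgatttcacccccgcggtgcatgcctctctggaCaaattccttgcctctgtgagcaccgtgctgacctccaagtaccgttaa
Hba-a2: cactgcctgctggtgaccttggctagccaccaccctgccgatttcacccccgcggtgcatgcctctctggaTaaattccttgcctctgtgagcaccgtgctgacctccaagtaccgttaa
Hbb-bs: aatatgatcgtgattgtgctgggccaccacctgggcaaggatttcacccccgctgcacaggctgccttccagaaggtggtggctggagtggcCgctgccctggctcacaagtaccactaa
Hbb-bt: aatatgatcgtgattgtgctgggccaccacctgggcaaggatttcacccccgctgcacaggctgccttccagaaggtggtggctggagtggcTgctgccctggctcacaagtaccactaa

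Within these stretches a read can be assigned to a copy only where it covers the capital base. After the stop codon, where many reads of 3'-end data lie, all 74 bases of the Hba-a1 transcript are also in that of Hba-a2, which has 90, while the longest run shared by Hbb-bs and Hbb-bt is 8 of 131 and 132 bases. The split of counts between the alpha copies is therefore uncertain, and that between the beta copies was not tested. The copies had 9 UMIs (Hba-a2) and 11 UMIs (Hbb-bt) in the HPC and 0 in the thalamus. With the copies added, the HPC stayed above the thalamus for beta globin in UMIs, on counts too low for a level by class.

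Members were also compared with the depth of the cell. Microglia-like cells of each set were split into 3 equal parts by total UMIs, and the deepest part had 2.00 times the mean UMIs of the shallowest in the HPC and 2.33 times in the thalamus. The ratio of Ttr UMIs per cell was 1.42 in the thalamus, that of Igkc 1.61 in the HPC and 1.63 in the thalamus, and that of Ighm 1.54 and 1.56. These rose less than depth. Mbp rose more than depth, by 2.26 and 2.87 times. For Jchain the ratio was 1.34 in the HPC and 0.909 in the thalamus, and for Enpp2 it was 0.777 in the thalamus, both on few UMIs.

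**Figure D5:**
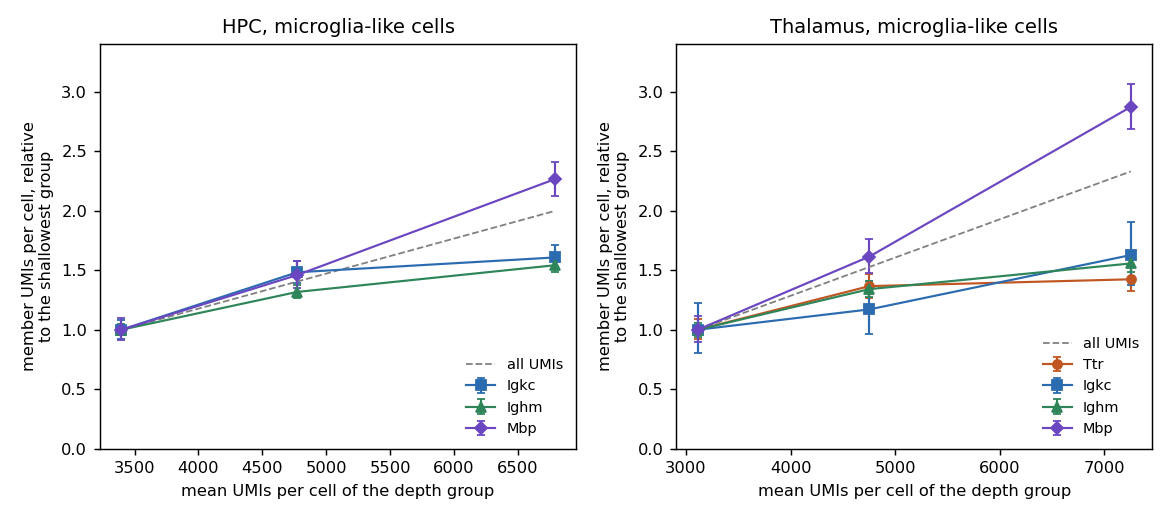
UMIs per cell of members in microglia-like cells, relative to the shallowest of 3 depth groups, against the mean total UMIs per cell of the group, by region, with Poisson 95% intervals. The dashed line is the total itself. From the shallowest to the deepest part Ttr in the thalamus rises 1.42 times and Mbp 2.87 times, while total UMIs rise 2.33 times.

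The genes whose levels went most like those of each member were found over 45 sums of set and class, among 10743 genes with a mean of at least 0.05 UMIs per 10,000, by Pearson's r of log2 levels. The sums of a region share a library, and those of a class share a composition, so r is given as a description only. Ttr was most like Spp1 (0.71), Cst7 (0.59) and Nceh1 (0.54), and Enpp2 most like Ttr (0.63), then Pak4 (0.57) and Akirin1 (0.56). For Igkc they were Mzb1 (0.86), Cd79a (0.85) and Pou2af1 (0.83), for Ighm Mzb1 (0.83), Gm30211 (0.82) and Igkc (0.81), and for Jchain Igkc (0.81), Ighm (0.78) and Gm30211 (0.76). Mbp was most like Mfsd6 (0.89), Pstpip1 (0.88) and Slc22a15 (0.88). The globin genes reached at most 0.51 (Hbb-bs with Tmeff2).

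Companion lists hold other genes of the same candidate sources and of further brain cells: choroid plexus, oligodendrocyte and myelin, erythroid, immunoglobulin and plasma cell, liver plasma protein, neuron, astrocyte, and endothelial and mural genes. They name 108 genes, 105 of them in the matrices and none a member. Microglia or lymphocytes express several of them themselves, among them Trf, Glul, Slc1a3, Tcf7l2, Bsg and Xbp1. The regions were compared by edgeR's quasi-likelihood test on counts summed per set (4 against 4), with p-values adjusted by Benjamini-Hochberg across every gene of the fit and calls made under 0.05. If tagged sets were not separate mice, these p-values would measure technical spread only. The set number was not part of these fits.

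In microglia-like cells, 34 companion genes were tested, and 5 were higher and 9 lower in the thalamus, which is 14.7% and 26.5%. Of all 13001 genes tested, 8.28% were called higher (1077) and 3.95% lower (514). Without normalization factors the calls were 785 higher and 815 lower, 49.1% higher in place of 67.7%. With the set number as a block they were 2051 and 1453, and 8 and 11 companion genes. The counts also depended on single sets. Leaving out an HPC set gave 1686 higher and 1123 lower calls for set 1, 529 and 149 for set 2, 840 and 310 for set 3, and 646 and 226 for set 4. Leaving out a thalamus set gave 629 and 228 for set 1, 891 and 353 for set 2, 912 and 416 for set 3, and 616 and 207 for set 4.

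Among immunoglobulin and plasma cell genes, 9 of 16 were tested in microglia-like cells, with 3 lower, 1 higher and 5 not called. Igha fell from 0.0687 ± 0.0081 to 0.0017 ± 0.0020 UMIs per 10,000 (SD, n = 4 each), a log2 difference of -5.37 (SE 0.41, edgeR adjusted p = 0.000221). Ighg2b (log2 difference -2.03, edgeR adjusted p = 0.00586) and the lambda light chain gene Iglc2 (-2.18, edgeR adjusted p = 0.0173) were lower too. Iglc1, another lambda gene, was higher (0.87, edgeR adjusted p = 0.0419), and its call was lost under 8 of 13 alternative settings. The sequences of Iglc1 and Iglc2 were not compared, and whether reads were split between them was not tested. Xbp1, a transcription factor of secretory cells, had 1.30 and 1.28 UMIs per 10,000 and was not called.

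Of the oligodendrocyte and myelin genes, 7 of 18 were tested. Trf, the iron carrier transferrin, had 6.32 and 5.77, and Cnp, a myelin enzyme, had 0.265 and 0.286 UMIs per 10,000 in HPC and thalamus, neither of them called. The median log2 difference of the tested members of the list was -0.07, against -0.01 over all genes tested.

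Choroid plexus genes were mostly too low to test in microglia-like cells: 2 of 16 were tested, and Cab39l was lower (log2 difference -0.17, edgeR adjusted p = 0.0417), a call lost under 7 of 13 alternatives. Kcnj13, a potassium channel of that epithelium, had 0.0282 and 0.0231 UMIs per 10,000 and was not called. The low-count filter passed Ttr and Enpp2 of the members, with Igkc, Ighm, Jchain and Mbp, 6 of 8 in all, and left out both globin genes.

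Erythroid genes had 2 of 13 tested, and Tent5c was higher (log2 difference 0.56, edgeR adjusted p = 0.0103), from 1.02 to 1.43 UMIs per 10,000. Bpgm, an enzyme of red cell metabolism, was not called. None of the 9 liver plasma protein genes passed the filter. Apob and Apoa2, lipoprotein genes, had region means of at most 0.0071 UMIs per 10,000 in all kept cells, while Hp, haptoglobin, had 0.143 and 0.144.

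Among neuron genes, 4 of 14 were tested and 2 were lower, namely Tcf7l2 (log2 difference -0.44, edgeR adjusted p = 0.0104), a Wnt pathway transcription factor, and Camk2a (-0.62, edgeR adjusted p = 0.0304), a synaptic kinase. Among astrocyte genes, 6 of 12 were tested, with the glycolytic gene Aldoc higher (1.43, edgeR adjusted p = 0.0105) and the glutamate transporter Slc1a3 lower (-0.38, edgeR adjusted p = 0.0219). Glul, glutamine synthetase, had 6.39 and 5.12 UMIs per 10,000 and was not called. Among endothelial and mural genes, 4 of 10 were tested, with the receptor Flt1 (2.51, edgeR adjusted p = 0.00189) and Bsg, basigin (0.29, edgeR adjusted p = 0.0483), higher and Pecam1 lower (-0.91, edgeR adjusted p = 0.0447). In no list were all tested genes called. The calls of Bsg, Pecam1, Cab39l, Slc1a3, Iglc1, Iglc2 and Camk2a were lost without HPC set 2, and all of these but Iglc1 also without thalamus set 1, with no change of sign under any of the 13 alternatives. Whether the reads of the called genes came from the microglia-like cells or from free RNA was not tested.

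In T/NK-like cells, 21 companion genes were tested and 0 were called by edgeR, with 1 (Trf) at an unadjusted p under 0.05 and 0 called by DESeq2. Of all 9205 genes tested there, 0.217% were called higher (20) and 0.0217% lower (2). Of the members, Ttr, Igkc, Ighm and Mbp passed the low-count filter. Over the 8806 genes in both fits, 13 were called higher in both classes and 0 lower in both, and 0 companion genes were called in both. In T/NK-like cells the members themselves had means in HPC and thalamus of 0 and 0.446 ± 0.053 for Ttr, and of 0.408 ± 0.216 and 0.170 ± 0.069 for Igkc (SD, n = 4 each), with 0 Ttr UMIs in the HPC, a count that allows at most 0.0057 per 10,000.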

How the data were processed

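CD45 positive cells of the HPC and the thalamus had been profiled on the 10x platform. The deposited values were counts, namely raw UMI counts per gene and cell, which the authors made, per the file headers, with Cell Ranger 7.1.0 against mm10 (GRCm38). The paper states an older Cell Ranger release, a difference not resolved here. Whether intron reads were counted is not given in the sources used here. Besides 32285 genes the matrices held 12 multiplexing oligos, with 14.6% of all UMIs, which were left out. The members and gene lists were chosen with earlier results of these data known.

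Cells with 200 to 7500 genes and at most 2% mitochondrial counts were kept, as in the study. A cell joined a class with at least 7 of 12 microglia markers, 5 markers of lists with 8 or more genes, or 4 of shorter lists. Cells that passed several gates were kept apart (cells with B and plasma cell markers counted as plasma-cell-like), and no doublet caller was run. Levels were summed per set or class, per 10,000 UMIs and per cell, with exact Poisson intervals for levels and Wilson intervals for shares of pairs. A level from 0 UMIs was limited by 3 counts. Classes under 50 cells in a region were left out of class ratios.

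Companion genes were tested with edgeR 4.0.16 (quasi-likelihood, TMM factors, filtered on low counts), with DESeq2 1.42.0, no filter, no factors, a stricter gate, a replicate block and leaving out each set as alternatives. The script was tested on simulated data. The study tested single cells, and sums per set were tested here because cells are not replicates. Named genes were all members, the 3 highest genes of each companion list, genes called in both fits, and the 3 genes most like each member by Pearson's r of log2(UMIs per 10,000 + 0.01). Called companion genes outside that rule were named after their values were seen, as were the Folr1 and Igha pairs. 1 called companion gene and a pair with it are not reported here. Positions came from GENCODE M21, which held 32158 of the gene IDs.

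The numbers of the sets come from the names of the matrices. In microglia-like cells, deviations of same-numbered sets of the regions correlated at 0.476, 0.142, 0.479 and 0.164 for sets 1 to 4. The highest value with a set of another number was 0.0132, 0.137, 0.137 and 0.0114, so set 2 hardly stood apart. Same-numbered sets were compared on this ground, which comes from the data and the matrix names and not from the labels. The main fits took no pairing, and the set number was a block only in an alternative fit. In T- or NK-like cells, which came from the same sets, the same-number values were 0.222, 0.016, 0.0020 and 0.250. Those with another number reached 0.0486, 0.0558, 0.0558 and -0.0275, and HPC set 3 had 32 of these cells.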

Additional observations from a re-analysis of the deposited data

Results flagged for a closer look

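In 43 groups of 4 sets, the highest or lowest set was compared with the rest by its gap over the range of the group against Dixon's 95% critical value, which chance passes in about 1 in 20 groups. It was passed in 8 groups.

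In all kept cells of the HPC, set 1 stood above the other sets for Igkc (49.0 UMIs per 10,000), Ighm (8.20), Jchain (3.82) and Mbp (0.678). Set 1 held 16 of the 17 HPC plasma-cell-like cells and 458 of 518 neutrophil-like cells. In the 5 main classes its values were 0.497 for Igkc, 1.08 for Ighm, 0.0372 for Jchain and 0.651 for Mbp, and in microglia-like cells alone Mbp was 0.404 in it.

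Thalamus set 3 was lowest for Mbp, at 0.456 UMIs per 10,000 in all kept cells and 0.418 in the 5 main classes. HPC set 2 was highest for Igkc in the 5 main classes, at 0.551, with the other sets at 0.497 to 0.503. HPC set 3 was highest for Hba-a1, at 0.0031, in a region with 8 UMIs of that gene.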

How the results depend on the processing

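Of the results recomputed, 206 under planned settings and 75 under settings added after the data were seen stayed within the limits for a like value. A further 47 and 2 moved. Reversal was counted in 0, but only log2 differences larger than their spread could be counted so, and class ratios and counts of calls could not. The log2 difference of Ttr (thalamus over HPC) was 11.16 in all kept cells, 13.61 in all deposited cells, 8.66 in microglia-like cells and 8.74 in the 5 main classes, and that of Enpp2 was 4.25, 5.61, 1.98 and 2.02. That of Jchain was -4.20 and, in microglia-like cells, -1.37. Per cell in place of per 10,000 UMIs, the highest over the lowest class went from 5.95 to 1.59 (Igkc, HPC), 2.74 to 10.7 (Ighm, thalamus), 1.93 to 7.22 (Ighm, HPC) and 5.84 to 3.01 (Mbp, HPC). Without the cell with the most UMIs in each class the Igkc ratio in the HPC was 3.78.

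Leaving out 1 set at a time in all kept cells, the log2 difference ran from 10.46 to 11.54 for Ttr, 3.68 to 4.60 for Enpp2, -3.69 to -0.54 for Igkc, -1.56 to -0.18 for Ighm, -5.26 to -1.92 for Jchain, 0.21 to 0.42 for Mbp, -5.32 to -4.51 for Hbb-bs and -2.83 to -0.03 for Hba-a1. The Igkc, Ighm and Jchain values nearest 0 were those without HPC set 1. In the 5 main classes the ranges were 8.46 to 9.21, 1.84 to 2.25, -2.42 to -2.33, -0.42 to -0.26, -1.71 to -1.45, 0.15 to 0.37, -5.15 to -4.30 and -1.13 to -0.07. The class ratio ran from 1.19 (without HPC set 1, with 3 classes left) to 6.34 for Igkc and from 3.79 (without HPC set 1) to 6.15 for Mbp in the HPC. It ran from 1.88 to 2.03 for Ighm in the HPC, and in the thalamus from 2.26 to 2.74 for Ttr, 1.72 to 2.40 for Igkc, 2.16 to 3.58 for Ighm and 4.33 to 5.43 for Mbp.

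Genes called higher in thalamus microglia-like cells numbered 529 (without HPC set 2) to 1686 (without HPC set 1), and lower 149 to 1123 without the same sets, with 3 to 7 and 4 to 10 companion genes. Without factors 815 genes were lower and 3 companion genes higher. With the replicate block, 2051 genes were higher and 1453 lower in microglia-like cells, with 8 companion genes higher. In T- or NK-like cells the block gave 99 and 92 in place of 20 and 2. There, DESeq2 called 9 and 20, no filter 66 and 47 with 2 companion genes lower, the stricter gate 4 lower, and leaving out a set 14 to 25 higher, 0 to 7 lower and 0 to 1 companion genes lower. Under the block none of the companion calls in microglia-like cells was lost. The cause was not tested. No value was given for Hbb-bs in all kept cells without thalamus set 4 and for Hba-a1 in microglia-like cells, where the thalamus had 0 UMIs, or for the Igkc class ratio without thalamus set 1 or 4, where the lowest class had at most 3 UMIs. The globin genes and Enpp2 were limited by depth, at 1 to 107 UMIs in a region's main classes.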

Other observations

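The filters removed 1824 cells in the HPC and 2427 in the thalamus. Those with 200 to 7500 genes, removed for their mitochondrial share, differed from the kept cells in members other than Ttr too. Igkc was 6.47 ± 3.53 UMIs per 10,000 in the HPC and 1.61 ± 0.619 in the thalamus (SD, n = 4 each). Ighm was 3.62 ± 1.35 and 1.46 ± 0.248 (SD, n = 4 each). Mbp was 1.24 ± 0.603 and 0.730 ± 0.183 (SD, n = 4 each). Over all removed cells, those of the HPC held 162 B-like cells, against 41 kept, and those of the thalamus 37, against 15 kept.

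Plasma-cell-like cells of the HPC were mixed in their heavy chains. Of 17 cells, 11 had more than 50 Ighm UMIs, 6 more than 50 Igha UMIs and 1 more than 50 UMIs of Ighg2c, an IgG2c constant gene. The 12534 main-class cells of the HPC had 414 Igha UMIs in 368 cells and 14 Ighg2c UMIs in 14 cells. Ighg2b, an IgG2b constant gene, had 7 UMIs in the plasma-cell-like cells and 178 UMIs in 142 cells of the main classes, more than Ighg2c there.

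Ighg3, the IgG3 constant gene, had 25 UMIs in 3 cells of the main classes of the HPC, unlike the spread of Igha UMIs over many cells.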
